A study of Mus musculus with 8 samples.

Results

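The glucocorticoid receptor gene Nr3c1 and 8 genes known to act with it or to respond to it in muscle, Hsd11b1, Fkbp5, Tsc22d3, Klf9, Klf15, Zbtb16, Sgk1 and Ddit4, were examined for chromatin accessibility. All regions whose annotated gene name was one of these 9 genes were taken, which gave 600 of the 489637 regions of the table, and 277 of the 600 passed a filter on low signal, a depth-scaled minimum that equals 10 reads in the median library, reached in at least 4 libraries. Signal is the number of reads in a region divided by 1 factor per library, as deposited. The assay was ATAC-seq: a transposase cuts where chromatin is open, and the reads per region report how open it is. The libraries came from nuclei of mouse gastrocnemius, a hindlimb muscle, taken at 6 months of age, 2 whole muscles to a sample. All 8 samples carried the genotype Cre+:iMSBmal1 fl/fl, in which a Cre recombinase can remove a floxed part of Bmal1, a core gene of the circadian clock. The 4 Vehicle samples were treated with vehicle and the 4 iMSBmal1KO samples with Tamoxifen, the drug that switches on such an inducible Cre. The labels name neither the promoter that drives Cre nor the floxed exon, and Tamoxifen treatment and loss of Bmal1 cannot be told apart in these groups. They give no time of day, and they do not say that the 4 samples of a group came from separate animals, so p-values measure the spread between these samples, which may be technical.

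Glucocorticoids are steroid hormones of the adrenal gland whose blood level follows a daily rhythm. They enter the cell and bind the glucocorticoid receptor, which is held ready by a chaperone complex built on HSP90, and the loaded receptor moves to the nucleus and binds DNA at glucocorticoid response elements, often far from the genes it controls. Hsd11b1 encodes the enzyme that turns inactive into active glucocorticoid inside the cell, and Fkbp5 encodes a co-chaperone that is induced by the receptor and lowers its affinity for hormone. In muscle, the receptor is known for slowing protein synthesis, raising protein breakdown and shifting fuel use during fasting and stress. Klf15, Ddit4 and Tsc22d3 are among its best known targets there.

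The promoters of these genes are shown first because the receptor and the BMAL1 protein are known to bind short motifs of different sequence. RefSeq promoter windows (GRCm38.p6), reaching from 250 bases before to 50 bases after a start, were found for 7 of the 9 genes. They were searched on both strands for the E-box CACGTG, the motif of BMAL1 with its partner, for the glucocorticoid half-site AGAACA, and for a full response element, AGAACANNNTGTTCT, in which N is any letter and the half-site stands once on each strand. Of all 32851 windows of the table, 7.15% held the E-box, 19.0% a half-site and 3 windows the full element. Of the 14 windows of the 7 genes, 3 held the E-box, 4 a half-site and 1 the full element, 6 windows in all. The 4 printed hold every E-box and the full element, with matches in capitals. The 2 not printed, chr10:21881934-21882233 and chr10:21991973-21992272 of Sgk1, hold 1 half-site each. In the Klf15 and Fkbp5 windows the capitals are E-boxes, in the Tsc22d3 window a half-site, and in the Sgk1 window an E-box that shares its last letters with a half-site, followed by the full element, which contains a half-site on each strand.
Klf15 (chr6:90462326-90462625, plus strand): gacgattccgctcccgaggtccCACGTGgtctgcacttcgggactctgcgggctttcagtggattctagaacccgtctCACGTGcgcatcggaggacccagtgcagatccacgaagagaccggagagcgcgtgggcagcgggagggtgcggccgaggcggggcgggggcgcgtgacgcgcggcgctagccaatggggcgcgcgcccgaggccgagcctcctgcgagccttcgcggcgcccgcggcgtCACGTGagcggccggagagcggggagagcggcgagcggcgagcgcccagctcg
Fkbp5 (chr17:28486100-28486399, minus strand): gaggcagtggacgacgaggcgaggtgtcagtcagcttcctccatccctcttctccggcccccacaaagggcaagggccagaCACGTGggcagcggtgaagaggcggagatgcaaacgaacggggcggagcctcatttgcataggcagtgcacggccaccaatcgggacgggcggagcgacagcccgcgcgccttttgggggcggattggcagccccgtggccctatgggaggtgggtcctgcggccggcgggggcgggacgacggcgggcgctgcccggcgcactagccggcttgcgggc
Sgk1 upstream start (chr10:21993640-21993939, plus strand): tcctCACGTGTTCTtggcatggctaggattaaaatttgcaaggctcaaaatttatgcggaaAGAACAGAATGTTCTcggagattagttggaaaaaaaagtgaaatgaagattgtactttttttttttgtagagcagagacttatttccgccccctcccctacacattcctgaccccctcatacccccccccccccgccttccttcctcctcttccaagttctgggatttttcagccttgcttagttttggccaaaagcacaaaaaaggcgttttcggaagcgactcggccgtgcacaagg
Tsc22d3 upstream start (chrX:140600473-140600772, minus strand): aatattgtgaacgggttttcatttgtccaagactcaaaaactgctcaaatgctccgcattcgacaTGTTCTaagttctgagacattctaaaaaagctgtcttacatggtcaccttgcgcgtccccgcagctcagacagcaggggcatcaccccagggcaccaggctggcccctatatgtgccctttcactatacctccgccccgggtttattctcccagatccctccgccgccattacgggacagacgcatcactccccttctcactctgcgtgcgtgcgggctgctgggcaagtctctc
The Klf15 window holds the E-box at positions 23, 79 and 248, counted from 1 at its 5′ end. The first of these lies in the region chr6:90462279-90462371 and the last in chr6:90462553-90462667, while no region of the table covers the middle one. The Fkbp5 E-box, at position 82, lies in the main promoter region of that gene. The Sgk1 window with the full element at position 62 overlaps no region of the table, and another Sgk1 start, chr10:21994416-21994715, plus strand, holds the most accessible Sgk1 region and none of the 3 motifs. A match is a description of letters, not a measured binding site.

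Before the members, the targeted gene was read in every library. The 4 libraries of each group are given in the order of their replicate numbers throughout. Bmal1, listed as Arntl, had a summed signal of 2688, 2248, 2557 and 1942 in Vehicle and 3023, 3421, 3154 and 3315 in iMSBmal1KO, so the groups did not overlap and the iMSBmal1KO libraries were the higher (log2 change 0.46 ± 0.14 SE, adjusted p = 0.318, limma). The tested Bmal1 coding exon region with the smallest p among those that were lower, chr7:113285062-113285936, held 24.5, 24.7, 21.0 and 34.4 in Vehicle and 8.56, 18.4, 39.4 and 11.3 in iMSBmal1KO. iMSBmal1KO replicate 3 was the highest of all there and the other three were below every Vehicle library, but this region was picked by its values and did not pass the test (adjusted p = 0.609, limma). Since the floxed exon is not named, neither value settles how complete the deletion was. The summed signal of Npas2, a clock gene, was 810.1, 962, 730.2 and 729 in Vehicle and 2276, 2151, 1721 and 1918 in iMSBmal1KO, higher in all 4 iMSBmal1KO libraries (log2 change 1.32 ± 0.15 SE, adjusted p = 0.000445, limma). Npas2 was not named in advance, and earlier results of these data were known, so it is no independent check of the groups. Depth ran from 4311106 to 29486045 reads in regions, estimated from the step of each library, lowest in Vehicle replicate 4, which also had 16.5% mitochondrial signal against 1.11% to 5.51% in the others. Of 27 marker genes of muscle fibres and other muscle cells, 19 were tested and 0 passed (limma-trend gene sums), against 0.170% of all genes, so 0 is near that background. At an unadjusted p under 0.05 there was 1, against 10.2% of all genes. That gene was the fibre marker Myh4 (log2 change 0.66 ± 0.25 SE, adjusted p = 0.461, limma). The summed fibre markers ranged from 11659.5 to 19576 in Vehicle and from 15710.5 to 18534 in iMSBmal1KO. The summed endothelial markers ranged from 1217 to 1550 in Vehicle and from 1254 to 1506 in iMSBmal1KO. Satellite cell markers summed to 541 to 644 in Vehicle and 624 to 771 in iMSBmal1KO. Fibro-adipogenic markers summed to 515 to 731 in Vehicle and 546 to 784 in iMSBmal1KO. Single blood cell markers had means from 11.6 for Ptprc to 96.7 for Csf1r, and fat cell markers from 10.4 for Adipoq to 63.0 for Plin1. In whole muscle, fewer nuclei of a type and lower accessibility per nucleus cannot be told apart.

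None of the 277 tested regions of the 9 genes passed the threshold, an adjusted p of 0.05 over all tested regions (limma-trend on log2(signal + 1), iMSBmal1KO minus Vehicle), and limma-voom also called 0. Of all regions tested, 0.0881% of 124901 passed, so 0 of 277 is near that background. At an unadjusted p under 0.05 there were 8 of the 277, or 2.89%, against 9.22% of all tested regions. That count of 8 was 21 by limma-voom, 29 with no filter and 2 with a stricter filter. Leaving out Vehicle replicate 3 gave 1 and leaving out Vehicle replicate 1 gave 13, and leaving out iMSBmal1KO replicates 1, 2 or 4 gave 3, 22 or 5. The 2 groups did not overlap at 5 of the 277, against 5.48% of all tested regions. Of the 277, 110 had a positive and 167 a negative log2 change, with a median of -0.09, while 62.0% of all tested regions were positive with a median of 0.12. 119 of the 277 belong to Zbtb16 alone, and neighbouring regions of 1 gene share their reads' source, so these counts describe the table rather than independent measurements. 141 of the 277 passed the filter in all 8 libraries, and 2, in Nr3c1 and Zbtb16, passed through the Vehicle libraries alone. The filter favours a lower value in iMSBmal1KO at those 2, which make up 1 of the 8 and 2 of the 5 counted above. Leaving out any 1 library, iMSBmal1KO replicate 3 and Vehicle replicate 4 among them, also gave 0 member regions and 0 member sums past the threshold.

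When the signal of all regions of a gene was summed, none of the 9 genes passed either, against 0.170% of 19404 genes, and 0 passed by limma-voom. There were 0 of the 9 at an unadjusted p under 0.05, against 10.2% of all genes. The log2 changes of the sums ran from -0.30 for Fkbp5 to 0.13 for Hsd11b1, 4 positive and 5 negative, with limma adjusted p from 0.661 to 0.965. The median of all genes was 0.12, and 8 of the 9 lay below it. The signs of the Sgk1 and Ddit4 sums turned under trimmed-mean and loess scaling, and that of Hsd11b1 under loess scaling. The median depends on scaling too: trimmed-mean scaling moved it by -0.10 and loess scaling by -0.12. The sums of the promoter regions, within 1000 bases of a start, gave 0 of 9 against 0.100% of 15978 promoters, and 0 by limma-voom. An unadjusted p under 0.05 was reached by 0 of the 9, against 10.6% of all promoters. The 95% intervals of the promoter changes reached from -0.51 to 0.56 on the log2 scale, so changes up to about that size lie within the intervals that 4 libraries a group gave.

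**Figure D1:**
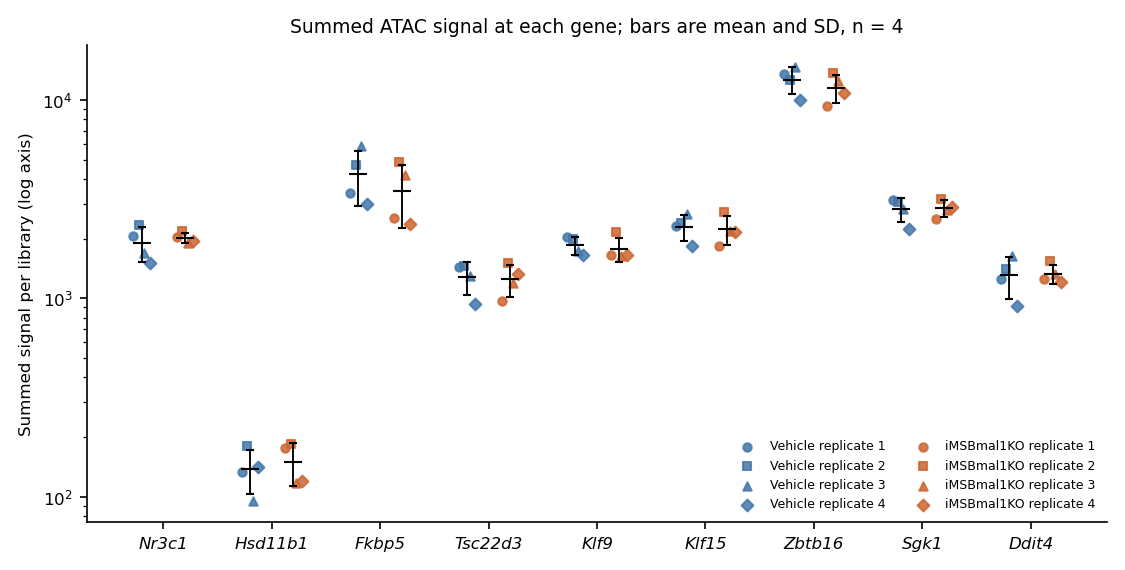
Summed ATAC signal of all regions of each of the 9 genes (y axis, signal units, log axis) in each library, with the mean and SD of each group beside the points (n = 4). The 2 groups overlap at every one of the 9 genes, and Fkbp5 spans the widest range of the 9 relative to its level, from 2383 to 5845.

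Nr3c1, the receptor (ENSMUSG00000024431, chr18:39410547-39519422, minus strand), did not pass the test in sum. Its summed signal over 81 regions was 2072, 2340.5, 1685 and 1504 in Vehicle and 2049, 2179, 1891 and 1949 in iMSBmal1KO. The groups overlapped, and the means were 1900.3 ± 377 against 2017 ± 126 (SD, n = 4 each), and the log2 change was 0.11 ± 0.15 (SE, adjusted p = 0.792, limma) with a 95% interval from -0.21 to 0.42. Without Vehicle replicate 4, its lowest and the shallowest library, the log2 change was -7.28e-05. Most of the signal lay at its promoters: 13 of 14 regions within 1000 bases of a start were tested, 8 positive and 5 negative. The most accessible Nr3c1 region, chr18:39491078-39491877 at a start, held 787, 756, 571 and 541 in Vehicle and 625, 765, 657 and 759 in iMSBmal1KO, and its log2 change was 0.09 ± 0.18 (SE, adjusted p = 0.880, limma). The Nr3c1 region with the smallest p, chr18:39459049-39459105 in intron 2, held 14.9, 11.3, 24.1 and 12.5 in Vehicle and 3.00, 3.35, 3.58 and 5.02 in iMSBmal1KO, on 4 to 38 reads in Vehicle and 3 to 7 in iMSBmal1KO. It is one of the 2 regions that passed the filter through Vehicle alone, which favours a lower value in iMSBmal1KO, so these values are a description only.

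Hsd11b1 (ENSMUSG00000016194, chr1:193221634-193264076, minus strand), which activates glucocorticoid within cells, had the weakest signal of the 9 genes. All of its 8 regions lie within 1000 bases of a start, and 1 was tested. That region, chr1:193242348-193242644, held 107, 148, 72.4 and 125 in Vehicle and 130.1, 146, 77.5 and 89.1 in iMSBmal1KO, with overlapping groups and a log2 change of -0.03 ± 0.26 (SE, adjusted p = 0.976, limma). Per length, the promoter regions of Hsd11b1 held 12.8 ± 2.97 signal per 100 bases (SD over 8 libraries), more than 29.9% of the 15978 promoters. The other 8 genes stood above that level on the same scale of signal per 100 promoter bases. In rising order these were Tsc22d3 at 27.4 ± 5.89, Fkbp5 at 47.2 ± 11.5, Nr3c1 at 59.1 ± 8.97 and Klf9 at 76.1 ± 9.78. Klf15 at 80.6 ± 11.0, Ddit4 at 103 ± 17.2, Zbtb16 at 123 ± 15.1 and Sgk1 at 127 ± 17.4 were the highest by this measure. The neighbours Klf9 and Klf15 and the neighbours Zbtb16 and Sgk1 differed by less than their SD. The measure divides by the length of all promoter regions, weak ones included, and the order depends on that choice. In the promoter region of highest signal alone, Sgk1 held 196, Ddit4 156, Klf9 156, Klf15 130 and Zbtb16 123 per 100 bases. Fkbp5 held 112, Nr3c1 85.4, Tsc22d3 78.3 and Hsd11b1 37.8.

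Fkbp5 (ENSMUSG00000024222, chr17:28399094-28517525, minus strand), the co-chaperone that restrains the receptor, had the lowest change of the 9 sums and the widest spread between libraries. Its summed signal over 119 regions was 3392, 4708, 5845 and 2998 in Vehicle and 2528, 4855, 4186 and 2383 in iMSBmal1KO. iMSBmal1KO replicates 1 and 4 were the lowest of all and Vehicle replicate 3 the highest, but iMSBmal1KO replicates 2 and 3 lay among the Vehicle libraries. The means were 4236 ± 1298 against 3488 ± 1224 (SD, n = 4 each), and the log2 change was -0.30 ± 0.26 (SE, adjusted p = 0.661, limma), with a 95% interval from -0.87 to 0.28. Without 1 library the change was smaller for Vehicle replicate 3, at -0.13, and for iMSBmal1KO replicates 1 and 4, at -0.17 and -0.14, and it was -0.45 without Vehicle replicate 4 and -0.48 without iMSBmal1KO replicate 2. The SD of log2 signal within groups was 0.479, larger than that of 89.1% of the 19404 genes, whose median was 0.262.

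The strongest Fkbp5 signal lay far upstream of the start that RefSeq gives. The most accessible Fkbp5 region, chr17:28512661-28513249, which the table places in a 5′ UTR exon of a longer transcript, lies 26512 bases upstream of the RefSeq gene. From the start of that longer transcript it lies only 4276 bases away. It held 1131, 1151, 1899 and 757 in Vehicle and 447, 1225, 1128 and 629.7 in iMSBmal1KO. The highest library was 4.25 times the lowest, both groups spread widely and overlapped, and the log2 change was -0.57 ± 0.35 (SE, adjusted p = 0.620, limma). Without iMSBmal1KO replicate 1 that change was -0.29, and without Vehicle replicate 3 it was -0.33. The promoter region chr17:28486140-28486630, which holds the E-box shown above, had 517, 657, 672 and 344 in Vehicle and 549, 691, 490.3 and 484 in iMSBmal1KO, a log2 change of 0.05 ± 0.22 (SE, adjusted p = 0.952, limma). The difference between the 2 regions was not tested. Of 42 tested Fkbp5 regions 10 were positive and 32 negative, with a median of -0.26. The Fkbp5 region with the smallest p, chr17:28517932-28518054 at the start of the longer transcript, held 66.1, 75.0, 88.3 and 46.9 in Vehicle and 27.4, 61.0, 51.3 and 43.9 in iMSBmal1KO (log2 change -0.60 ± 0.28 SE, adjusted p = 0.537, limma). The groups overlapped there too.

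**Figure D2:**
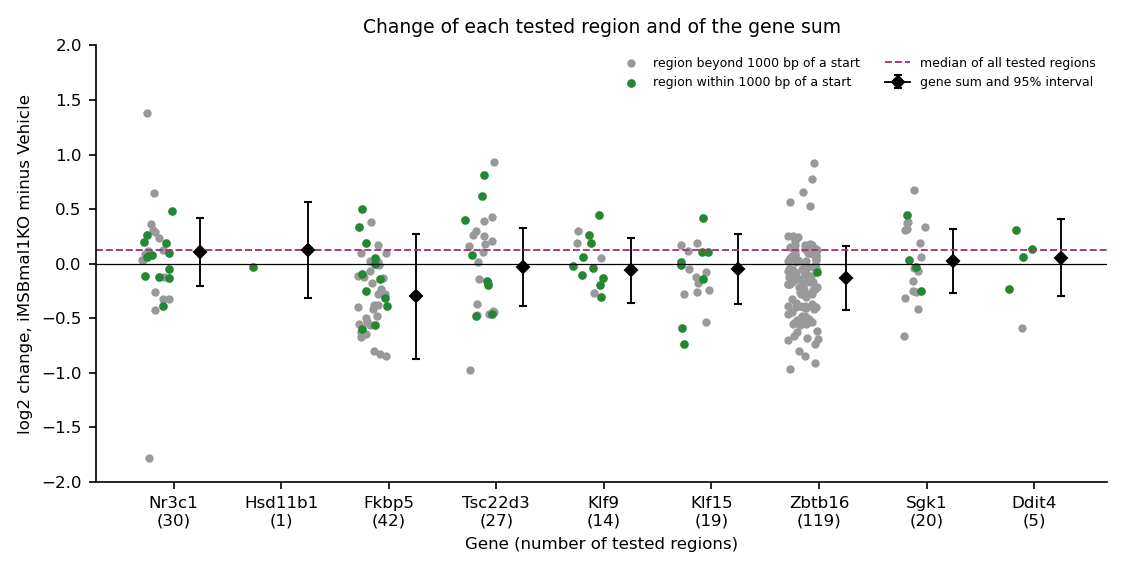
Log2 change (y axis, iMSBmal1KO minus Vehicle, on log2(signal + 1)) of each tested region of the 9 genes, with the gene sum and its 95% interval as a black diamond and the median of all 124901 tested regions as a dashed line. Every interval of the gene sums crosses 0, and the region at -1.78 is the Nr3c1 intron 2 region of few reads.

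Tsc22d3 (ENSMUSG00000031431, chrX:140539528-140600660, minus strand) encodes GILZ, a leucine zipper protein that carries part of the anti-inflammatory action of glucocorticoids. Its summed signal was 1433, 1449, 1298 and 932 in Vehicle and 968, 1504, 1189 and 1329.7 in iMSBmal1KO, with overlapping groups and a log2 change of -0.03 ± 0.17 (SE, adjusted p = 0.956, limma). Vehicle replicate 4 and iMSBmal1KO replicate 1 were the lowest. Its most accessible region, chrX:140543066-140543547 near a start, held 462, 499, 361 and 266 in Vehicle and 249, 488, 367 and 319 in iMSBmal1KO and had a log2 change of -0.16 ± 0.23 (SE, adjusted p = 0.834, limma). The Tsc22d3 region with the smallest p, chrX:140572398-140572523 in intron 2, had means of 8.25 ± 5.16 against 15.1 ± 4.10 (SD, n = 4 each) and did not pass (log2 change 0.94 ± 0.44 SE, adjusted p = 0.538, limma). It held 1 read in Vehicle replicate 4. Of the 27 tested Tsc22d3 regions 15 were positive and 12 negative.

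Klf9 (ENSMUSG00000033863, chr19:23141226-23168135, plus strand), a Krüppel-like transcription factor that glucocorticoids induce in many tissues, had the smallest spread within groups of the 9 sums. Its summed signal was 2032, 1985, 1725 and 1657 in Vehicle and 1655, 2149, 1644 and 1656 in iMSBmal1KO, a log2 change of -0.06 ± 0.14 (SE, adjusted p = 0.876, limma). iMSBmal1KO replicate 2 stood above the other three of its group, which lay close together. The region over the Klf9 start, chr19:23140756-23141368, held 1159.7, 1046, 789 and 954 in Vehicle and 922, 1149.8, 788 and 813 in iMSBmal1KO, with overlapping groups and a log2 change of -0.11 ± 0.18 (SE, adjusted p = 0.859, limma). Its smallest p, at chr19:23141687-23141748 in a 5′ UTR exon, belonged to a weak region with means of 9.14 ± 3.74 against 12.5 ± 2.92 (SD, n = 4 each; log2 change 0.45 ± 0.41 SE, adjusted p = 0.720, limma). Of the 14 tested Klf9 regions 7 were positive and 7 negative.

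Klf15 (ENSMUSG00000030087, chr6:90462576-90475239, plus strand), a Krüppel-like factor that links glucocorticoids to amino acid breakdown in muscle, did not pass in sum, and 2 narrow regions at its start had opposite signs. The summed signal was 2317, 2404, 2650.0 and 1829 in Vehicle and 1829, 2728, 2178 and 2163 in iMSBmal1KO, a log2 change of -0.05 ± 0.15 (SE, adjusted p = 0.913, limma). The region chr6:90462279-90462371, 205 bases upstream of the start and over the first E-box of the printed window, held 36.2, 28.8, 30.5 and 31.3 in Vehicle and 21.0, 20.1, 20.3 and 21.3 in iMSBmal1KO. Every iMSBmal1KO library was below every Vehicle library there, at a log2 change of -0.59 ± 0.27 (SE, adjusted p = 0.534, limma), which did not pass. The region chr6:90462553-90462667, over the start itself and the last E-box, held 83.1, 81.2, 67.4 and 59.4 in Vehicle and 93.3, 127, 87.1 and 84.0 in iMSBmal1KO. There every iMSBmal1KO library was above every Vehicle library, at a log2 change of 0.42 ± 0.23 (SE, adjusted p = 0.579, limma), which did not pass either. Both regions were singled out after their values were seen. In Vehicle replicate 4 the first held 10 reads and the second 19. The strong Klf15 promoter region just downstream, chr6:90463174-90463989, held 1199, 1170.2, 1089 and 766 in Vehicle and 861, 1236, 1056 and 1090.1 in iMSBmal1KO, with overlapping groups and a log2 change of 0.02 ± 0.18 (SE, adjusted p = 0.984, limma). The narrow region that abuts it, chr6:90463050-90463174, had the smallest p of Klf15, with means of 40.1 ± 10.5 against 23.5 ± 5.77 (SD, n = 4 each; log2 change -0.74 ± 0.29 SE, adjusted p = 0.498, limma).

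Zbtb16 (ENSMUSG00000066687, chr9:48654297-48836223, minus strand) encodes PLZF, a zinc finger repressor whose gene is strongly induced by glucocorticoids. It is a long gene and had the most regions of the 9, 206 in all, 194 of them in introns. Its summed signal was 13483, 12559, 14649 and 10043 in Vehicle and 9325, 13623, 12430.5 and 10867 in iMSBmal1KO, with overlapping groups and a log2 change of -0.13 ± 0.14 (SE, adjusted p = 0.711, limma). The region over its start, chr9:48835716-48836720, held 1199, 1364, 1332 and 1141 in Vehicle and 996, 1471, 1128 and 1228 in iMSBmal1KO (log2 change -0.07 ± 0.17 SE, adjusted p = 0.901, limma). The strongest Zbtb16 region lay not at the start but in intron 4, chr9:48707262-48707987, with 1800.4, 1382, 1314 and 938 in Vehicle and 1180.1, 1433, 1569.8 and 1471 in iMSBmal1KO (log2 change 0.09 ± 0.19 SE, adjusted p = 0.895, limma). The smallest p of all member regions fell in Zbtb16 intron 6, chr9:48658221-48658404, which held 25.6, 22.6, 24.1 and 15.6 in Vehicle and 35.5, 45.2, 45.3 and 42.7 in iMSBmal1KO. Every iMSBmal1KO library was above every Vehicle library at that region, with a log2 change of 0.92 ± 0.28 (SE, adjusted p = 0.349, limma), which did not pass. The values there rest on 5 to 38 reads in Vehicle and 34 to 83 in iMSBmal1KO. By intron, 20 of 62 tested regions were positive in intron 2, 3 of 16 in intron 3, 10 of 27 in intron 4, 2 of 4 in intron 5 and 1 of 2 in intron 6.

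Sgk1 (ENSMUSG00000019970, chr10:21882184-21999904, plus strand) encodes a serine/threonine kinase of ion transport and muscle mass, and Ddit4 (ENSMUSG00000020108, chr10:59949669-59951835, minus strand) encodes REDD1, an inhibitor of mTORC1. Neither sum passed the test. The Sgk1 sum was 3115, 3062, 2835 and 2248 in Vehicle and 2509, 3182, 2790.0 and 2884 in iMSBmal1KO, a log2 change of 0.02 ± 0.14 (SE, adjusted p = 0.965, limma). The Ddit4 sum was 1258, 1407, 1641 and 909.9 in Vehicle and 1255, 1535, 1326 and 1203 in iMSBmal1KO, a log2 change of 0.05 ± 0.17 (SE, adjusted p = 0.915, limma). In both genes Vehicle replicate 4 was the lowest library. The region over the Sgk1 start, chr10:21994163-21994800, held 1439, 1360.3, 1148 and 1016 in Vehicle and 1059.8, 1351, 1278 and 1354 in iMSBmal1KO (log2 change 0.03 ± 0.17 SE, adjusted p = 0.964, limma). The region over the Ddit4 start, chr10:59951617-59952295, held 1036, 1172, 1291 and 691 in Vehicle and 1029, 1220.1, 1044 and 968 in iMSBmal1KO (log2 change 0.06 ± 0.19 SE, adjusted p = 0.936, limma). The groups overlapped at both starts. The smallest p of Sgk1 was at chr10:21973563-21973690 in intron 2, with means of 19.4 ± 6.37 against 11.8 ± 3.55 (SD, n = 4 each), and that of Ddit4 at chr10:59950778-59951012 in coding exon 3, with means of 125 ± 28.2 against 153 ± 15.3 (SD, n = 4 each). Their log2 changes were -0.67 and 0.31 (limma adjusted p of 0.562 and 0.645).

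Regions were next read by the gene section that the table gives them. Summed by gene and section, the 9 genes had 35 tested pairs, of which 0 passed by limma-trend and 0 by limma-voom, against 0.140% of 34880 pairs, and 2 had an unadjusted p under 0.05, against 10.4% of all pairs. Both belonged to Tsc22d3, whose sections did not share a sign: 10 of its 12 tested intron regions were positive, with a median of 0.23. Its coding exons summed to 58.0 ± 4.56 against 41.4 ± 13.6 (SD, n = 4 each), and the log2 change was -0.53 ± 0.24 (SE, adjusted p = 0.468, limma), and its transcript ends to 67.0 ± 26.4 against 41.9 ± 15.1 (SD, n = 4 each), and the log2 change was -0.67 ± 0.31 (SE, adjusted p = 0.475, limma). At transcription starts 19 of 46 tested member regions were positive, with a median log2 change of -0.04, while among all regions at starts 21903 of 31331 were positive with a median of 0.17. In introns 68 of 167 were positive, with a median of -0.08 against 0.10 for all intron regions. In 5′ UTR exons, where 27 of the 42 tested regions belong to Fkbp5, 14 were positive, with a median of -0.16 against 0.08. These are counts over regions that share genes and are given as a description only.

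Several distal regions, more than 1000 bases from a start, were high and low in the same libraries of both groups. Of the member regions with a mean signal of at least 100, 25 were distal, and Vehicle replicate 3 was the highest library at 12 of them and iMSBmal1KO replicate 1 the lowest at 11. The other distal regions were compared with the leading Fkbp5 region by Pearson's r of log2 signal over the 8 libraries, a description with no test, since the regions were picked for their likeness and share libraries and scaling. The highest values were those of the Zbtb16 regions chr9:48723672-48724172 in intron 3 and chr9:48824590-48825048 in intron 2, at 0.96 each. The first held 487, 557, 759 and 447 in Vehicle and 184, 584, 505 and 249.6 in iMSBmal1KO. The second held 789, 638, 930.4 and 535 in Vehicle and 418, 698, 689 and 423 in iMSBmal1KO. In both, iMSBmal1KO replicates 1 and 4 were the lowest libraries and Vehicle replicate 3 the highest, as at Fkbp5.

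The leading distal regions of Klf15 and Sgk1 had a like profile. That of Klf15, chr6:90472680-90473056 in intron 1, held 260.1, 259.9, 405 and 244 in Vehicle and 174, 319, 262 and 231 in iMSBmal1KO, with r of 0.94 and Spearman's rho of 0.90. That of Sgk1, chr10:21973753-21974122 in intron 2, held 195, 202, 233 and 113 in Vehicle and 112, 197, 192 and 122 in iMSBmal1KO, with r of 0.93 and rho of 0.95. Taken as deviations from the group means, r was 0.93 for Klf15 and 0.93 for Sgk1. Without iMSBmal1KO replicates 1 and 4, the 2 libraries farthest from the median of the Fkbp5 region, r was 0.89 and 0.89. The leading distal regions of the other genes, those of highest signal, had lower r with the Fkbp5 region. It was 0.68 for Ddit4, 0.64 for Klf9, 0.52 for Tsc22d3, 0.36 for Zbtb16 and -0.0016 for Nr3c1. The Ddit4 and Nr3c1 regions were weak, with a mean signal well below 100 in both groups. Their r values rest on few reads, so they cannot show whether distal chromatin of these genes differs from that of Fkbp5. Hsd11b1 had no tested distal region. The leading promoter regions had r of 0.71 for Zbtb16, 0.69 for Tsc22d3, 0.60 for Klf15, 0.56 for Ddit4, 0.50 for Fkbp5 itself, 0.35 for Sgk1, 0.06 for Klf9, 0.04 for Nr3c1 and -0.33 for Hsd11b1. The Zbtb16 promoter was above the leading Zbtb16 distal region, so this measure did not separate distal from promoter regions. Without the same 2 libraries, r was 0.80 for the Fkbp5 promoter and 0.88 for the Ddit4 promoter, close to the Klf15 and Sgk1 distal regions. The other leading promoter regions then had lower r: 0.61 for Klf15, 0.52 for Zbtb16, 0.37 for Tsc22d3, 0.24 for Sgk1, 0.06 for Nr3c1, -0.33 for Klf9 and -0.52 for Hsd11b1. The 24 other distal member regions with a mean signal of at least 100 had a median r of 0.79, against 0.15 for all 5977 distal regions of that signal. Of the 24, 15 belong to Zbtb16 and 3 to Fkbp5 itself, so they are not independent. The 16 member promoter regions of that signal had a median r of 0.43, against -0.03 for all 10180 such promoter regions. The Fkbp5 distal signal had r of 0.02 with log2 depth and of -0.02 with the mitochondrial share over the 8 libraries.

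**Figure D3:**
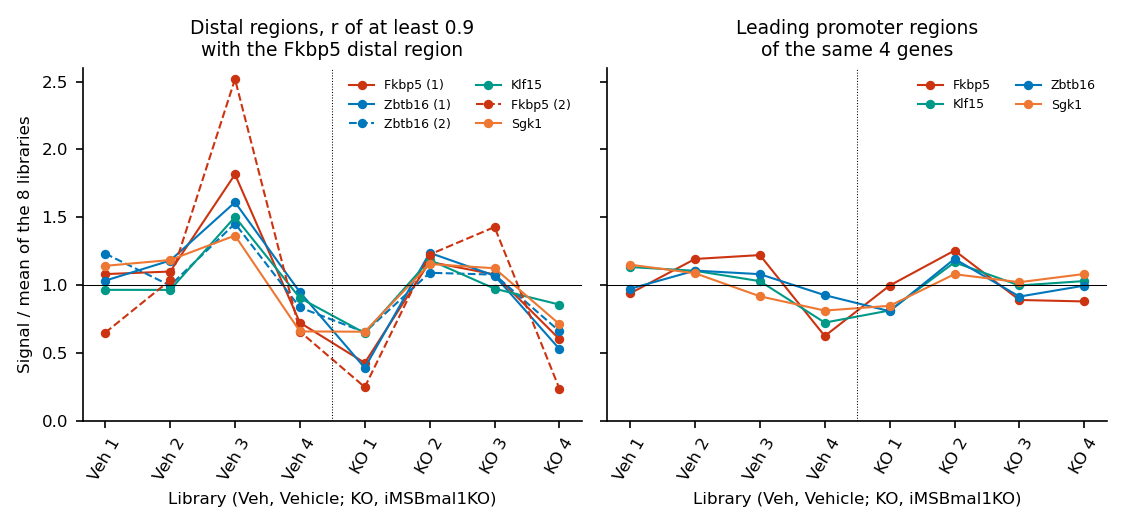
Signal of 6 distal regions picked for their likeness (left) and of the leading promoter regions of the same 4 genes (right) in each library, divided by the mean of the 8 libraries (y axis, no unit). Lines only join the points of 1 region, and the order of libraries within a group has no meaning. All 6 distal regions lie below their mean in iMSBmal1KO replicates 1 and 4 and are highest in Vehicle replicate 3.

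**Figure D4:**
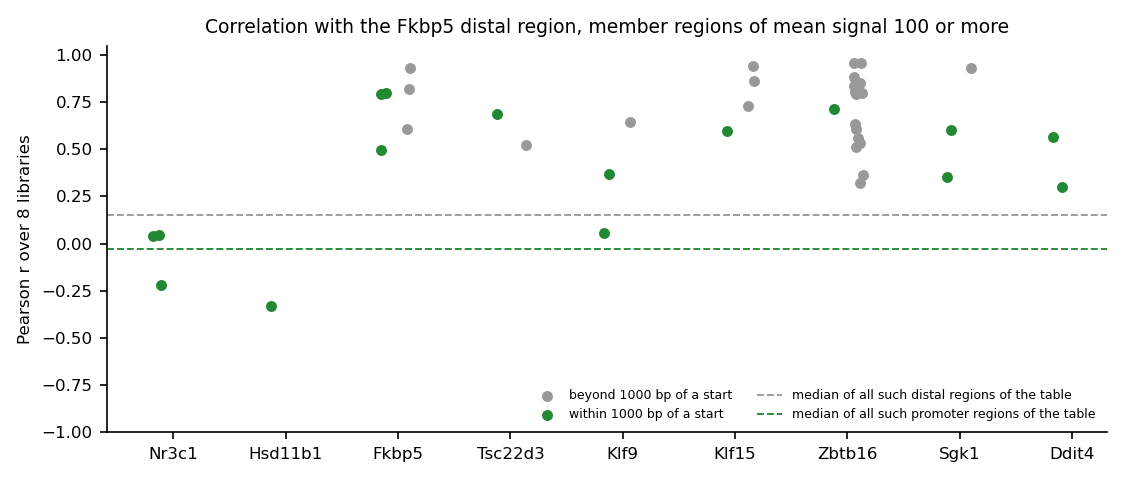
Pearson's r over the 8 libraries between the leading distal Fkbp5 region and each other member region with a mean signal of at least 100 (y axis, no unit), by gene, with the medians of all distal and all promoter regions of that signal in the table as dashed lines. The distal regions lie between 0.32 and 0.96, the promoter regions between -0.33 and 0.80.

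Summed by gene, the 9 genes did not all vary together over the 8 libraries. The sums of Tsc22d3 and Sgk1 had r of 0.97, those of Klf15 and Zbtb16 0.93, and those of Fkbp5 and Zbtb16 0.85, pairs picked for their likeness. The median gene had r of 0.35 with Tsc22d3, 0.44 with Sgk1, 0.24 with Klf15, 0.10 with Zbtb16 and 0.03 with Fkbp5. The receptor's own sum was most like that of Sgk1 among the members, at 0.74, and least like that of Fkbp5, at 0.10. Among all 19404 genes, those most like Nr3c1 were Zbtb20 at 0.990, Gm13287 at 0.987 and Lmbr1 at 0.986, where the median gene had 0.56. All such values rest on 8 points that share depth and scaling.

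The wider pathway was read from 4 further lists of 46 genes in all, 43 of them tested by gene sum, and 1 passed, against 0.170% of all genes. The lists were chosen with earlier results of these data known, so the counts over them are a description only. At an unadjusted p under 0.05 there were 5 of the 43, against 10.2% of all genes. Of 10 genes of the receptor complex and its chaperones, such as the HSP90 genes, 5 were positive and 5 negative and 0 passed. The smallest p there was that of Ppid, a co-chaperone that binds HSP90, with a log2 change of 0.42 ± 0.18 (SE, adjusted p = 0.468, limma). Of 10 coregulators 7 were positive and 3 negative, 0 passed, and the smallest p was that of Med1, a Mediator subunit, at 0.29 ± 0.17 (SE, adjusted p = 0.534, limma). Of 4 genes of steroid metabolism 2 were tested, both negative, and 0 passed. H6pd, which supplies the cofactor of the Hsd11b1 enzyme, was at -0.08 ± 0.14 (SE, adjusted p = 0.847, limma).

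Of 22 other genes that glucocorticoids are known to induce in muscle, 21 were tested, 11 positive and 10 negative with a median of 0.01 against 0.12 for all genes, and 1 rose past the threshold. At an unadjusted p under 0.05 there were 4 of the 21, against 10.2% of all genes. Of these, Errfi1, an inhibitor of EGF receptor signalling, and Cebpb, a transcription factor, were lower in every iMSBmal1KO library than in any Vehicle library without passing, at log2 changes of -0.48 and -0.38 (adjusted p = 0.461 for both, limma), and were picked by their values. The gene that passed was Cdkn1a, which encodes the cell cycle inhibitor p21. Its summed signal was 134, 181, 209.7 and 163 in Vehicle and 371, 534, 431 and 331 in iMSBmal1KO, so every iMSBmal1KO library was above every Vehicle library. The means were 172 ± 31.7 against 416 ± 88.1 (SD, n = 4 each), and the log2 change was 1.27 ± 0.18 (SE, adjusted p = 0.00348, limma). Its region over the start, chr17:29093703-29094005, rose from 117 ± 12.5 to 253 ± 45.1 (SD, n = 4 each), and the log2 change was 1.09 ± 0.21 (SE, adjusted p = 0.0444, limma). Averaged over its 3 tested regions in place of summed, the Cdkn1a change was 1.50 and did not pass (limma adjusted p of 0.0987). Cdkn1a is controlled by many factors besides the glucocorticoid receptor.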

How the data were processed

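ATAC-seq was run on nuclei of gastrocnemius from 4 Vehicle and 4 iMSBmal1KO samples. The authors deposited 1 table of 489637 regions with a signal per library and an annotation to genes. Of the non-zero deposited signal values, 98.3% to 99.8% by library were whole multiples of 1 step (within 0.02 reads), so the signal was taken as read counts over a factor per library. The remaining values were not whole, so no count test was run. Bowtie2, MACS2, Partek and DESeq2 are named in the submitters' processing notes without versions or roles, beside the builds mm10 and GRCm39. The table names no build. Its genes overlapped those of RefSeq GRCm38.p6, the mm10 assembly, for 99.9% of 22777 matched names, and 7 of the 9 genes shared an end with RefSeq to within 10 bases. Coordinates are given as the table lists them.

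Signal was tested as log2(signal + 1) by limma-trend with robust moderation (limma 3.58.1, R 4.3.3), group as the only term, and Benjamini-Hochberg adjustment over every tested region, gene, promoter or gene and section. Scripts were tested on simulated data. The filter needed 10 reads in the median library, scaled by depth, in 4 libraries and 15 reads in all. For each gene, the tested regions of highest signal and of smallest p were named, with regions added where stated. The members and lists were chosen with earlier results of these data known. Alternatives were other scalings, pseudocounts, filters, windows, limma-voom, a replicate block, merged regions and leaving out each library. Python 3.11.15, pandas 2.3.3 and matplotlib 3.10.9 were used.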

Additional observations from a re-analysis of the deposited data

Results flagged for a closer look

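In 2 of the 70 group values examined, 1 sample stood far from the other three of its group, by a gap of 0.976 and 0.852 of the group's range, above Dixon's 95% critical value for 4 samples. Chance gives about 1 such flag in 20 groups. At the Klf9 gene sum, iMSBmal1KO replicate 2 had 2149 against 1644 to 1656 in the others. At the Klf15 promoter sum, Vehicle replicate 4, the shallowest library, had 1022 against 1379 to 1441.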

How the results depend on the processing

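No member region, gene sum, promoter sum or gene and section sum passed the threshold under any alternative run, so these 0 counts held throughout. The counts over the whole table were less stable. Against 110 regions, 33 gene sums, 16 promoter sums and 49 gene and section sums, trimmed-mean scaling gave 252, 53, 33 and 101 and loess scaling 342, 69, 36 and 118. limma-voom gave 342 regions, 45 promoter sums and 80 gene and section sums, no filter gave 195 regions, and the mean over tested regions gave 1 gene. Promoter sums numbered 25 with a pseudocount of 5, 27 with the stricter filter and 27 in a window of 2000 bases. The replicate number as a block (replicate block) gave 100 regions, 130 gene sums, 154 promoter sums and 114 gene and section sums, and changed no member's call. The deviations of same-numbered samples from the group means had correlations of -0.06, 0.14, 0.02 and 0.02, not all above 0.1. Taken over genes, the correlations were -0.11, 0.32, 0.04 and 0.03. By the first set of deviations, no Vehicle sample correlated best with the iMSBmal1KO sample of its own number. These values cannot show whether same-numbered samples shared a batch. Leaving out 1 library gave 32 to 281 regions, 7 to 132 gene sums, 8 to 383 promoter sums and 24 to 150 gene and section sums. Member regions at an unadjusted p under 0.05, an alternative added after seeing the data, numbered 1 to 22 with 1 library left out, 14 with trimmed-mean scaling, 15 with loess scaling, 21 with limma-voom, 16 with the replicate block, 29 with no filter, 2 with the stricter filter and 5 with abutting regions merged, against 8. Log2 changes that turned sign under trimmed-mean scaling were -0.080 for the Sgk1 sum, -0.045 for the Ddit4 sum, -0.0050 for the Nr3c1 region at 39491078, -0.083 for the Klf15 region at 90463174, -0.012 for the Zbtb16 region at 48707262, -0.070 for the Sgk1 region at 21994163 and -0.042 for the Ddit4 region at 59951617. Log2 changes that turned sign under loess scaling were -0.015 for the Hsd11b1 sum, -0.014 for the Sgk1 sum, -0.038 for the Ddit4 sum, -0.021 for the Nr3c1 region at 39491078, -0.084 for the Klf15 region at 90463174, -0.0029 for the Zbtb16 region at 48707262, -0.064 for the Sgk1 region at 21994163 and -0.043 for the Ddit4 region at 59951617. Log2 changes that turned sign under limma-voom were 0.038 for the Hsd11b1 region at 193242348 and -0.027 for the Klf15 region at 90463174. Under the sum over tested regions the Hsd11b1 sum turned to -0.032. Log2 changes that turned sign under the mean over tested regions were -0.032 for the Hsd11b1 sum, 0.014 for the Tsc22d3 sum, 0.030 for the Klf9 sum and -0.064 for the Ddit4 sum. With 1 library left out, the ranges of those that turned sign were -7.3e-05 to 0.21 for the Nr3c1 sum, -0.035 to 0.27 for the Hsd11b1 sum, -0.18 to 0.084 for the Tsc22d3 sum, -0.16 to 0.039 for the Klf15 sum, -0.084 to 0.078 for the Sgk1 sum, -0.11 to 0.18 for the Ddit4 sum, -0.23 to 0.12 for the Hsd11b1 region at 193242348, -0.13 to 0.11 for the Klf15 region at 90463174, -0.078 to 0.24 for the Zbtb16 region at 48707262, -0.062 to 0.11 for the Sgk1 region at 21994163 and -0.13 to 0.17 for the Ddit4 region at 59951617. All main values that turned were within 0.13 of 0 on the log2 scale. The cause was not tested. The 4 libraries a group and the depth of Vehicle replicate 4 limit which changes could be detected. The planned count test was replaced by limma-voom, since some values are not whole multiples of a library's step.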
